A study of Mus musculus with 6 samples.

Results

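The perilipins are the coat proteins of lipid droplets, and the mouse genome holds 5 perilipin genes, *Plin1* to *Plin5*. All 5 were found in the deposited matrix, 1 row each, at 5 of its 53912 loci. Together these loci held 9 of its 61880 rows. The family was chosen partly by the counts of the *Plin3* row, which moved between the rows of its locus, so every *Plin3* difference below is a description without a test. The values of the other members were not named in that choice.

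Mammary epithelial cells were isolated from the inguinal glands of female mice of 6 to 8 weeks, and their RNA was sequenced as 3 *fat-1* pools and 3 wild type (WT) pools, each labelled as a pooled sample of its genotype (2 to 3 mice by the methods, which elsewhere give 6 to 8 mice for each analysis). The *fat-1* mice carry a transgene for a desaturase of a worm that makes *n*-3 from *n*-6 polyunsaturated fatty acids, and the promoter that drives it is not given in the sources used here. Both genotypes were of the FVB/NJ strain, and both were kept for life, as were their parents, on a modified AIN93G diet with 10% safflower oil by weight. The question was what *n*-3 fatty acids change in the epithelial cells during puberty, and n is 3 pools per genotype throughout.

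A lipid droplet is a store of triglycerides and cholesterol esters inside a single layer of phospholipids, and perilipins on that layer decide which lipases reach the store. *Plin1* is known from fat cells, where it holds the lipase activator ABHD5 until hormones release it. *Plin2* is found in most tissues, in milk-secreting epithelium among them, *Plin3* moves from the cytosol onto new droplets, *Plin4* coats small new droplets in fat and muscle, and *Plin5* ties droplets to mitochondria in cells that burn fat. Fatty acids are ligands of the PPAR receptors, of which several perilipin genes are known targets.

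Each gene was placed on GRCm38 from the GENCODE M21 annotation, and all 5 lie on the minus strand. *Plin1* spans chr7:79720218-79732903 and *Plin2* spans chr4:86648386-86670060. The other 3 lie on chromosome 17, with *Plin4* at chr17:56100591-56109803, *Plin5* at chr17:56111601-56117596 and *Plin3* at chr17:56277476-56292873. *Plin4* and *Plin5* are 1797 bases apart, and 159.9 kb separate *Plin5* from *Plin3*. *Ticam1*, which codes for an adaptor of Toll-like receptors, lies at chr17:56269319-56276786, only 689 bases from *Plin3* on the same strand, and both symbols fell into 1 assembled locus. *Plin4* shares 17 bases with *Hdgfl2* on the opposite strand, and whether strand was used in counting is not stated.

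Of the gap between *Plin3* and *Ticam1*, the 231 bases next to *Ticam1* are shown (RefSeq table, GRCm38.p6, minus strand, chr17:56276787-56277017), because the counts of the *Plin3* locus moved among rows that meet across this gap. Capitals mark the motif GGGCGG, searched on both strands. The window held it 3 times, and the third copy runs past the end of the piece shown. It was held by 32.7% of 32851 windows of the same length around gene starts.
Ticam1, upstream: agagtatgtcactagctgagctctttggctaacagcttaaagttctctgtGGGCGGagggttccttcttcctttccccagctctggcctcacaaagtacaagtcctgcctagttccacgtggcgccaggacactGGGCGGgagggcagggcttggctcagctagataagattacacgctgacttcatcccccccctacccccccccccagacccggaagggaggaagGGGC

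The upstream bases of *Plin2* (chr4:86670061-86670309), *Plin4* (chr17:56109804-56110032) and *Plin5* (chr17:56117597-56117798) are shown from the same table, each on the minus strand, because these 3 genes were highest in the same WT pool. Capitals mark AGGTCA, the 6-base core site of nuclear receptors, on either strand.
Plin2, upstream: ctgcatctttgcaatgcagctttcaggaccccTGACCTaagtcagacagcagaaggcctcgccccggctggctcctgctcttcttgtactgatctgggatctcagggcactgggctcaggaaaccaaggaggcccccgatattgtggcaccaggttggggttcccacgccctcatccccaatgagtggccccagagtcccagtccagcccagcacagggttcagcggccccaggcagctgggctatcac
Plin4, upstream: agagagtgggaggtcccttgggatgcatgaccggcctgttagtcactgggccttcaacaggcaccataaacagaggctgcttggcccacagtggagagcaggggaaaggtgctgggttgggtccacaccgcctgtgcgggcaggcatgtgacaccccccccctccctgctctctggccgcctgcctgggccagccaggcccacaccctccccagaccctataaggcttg
Plin5, upstream: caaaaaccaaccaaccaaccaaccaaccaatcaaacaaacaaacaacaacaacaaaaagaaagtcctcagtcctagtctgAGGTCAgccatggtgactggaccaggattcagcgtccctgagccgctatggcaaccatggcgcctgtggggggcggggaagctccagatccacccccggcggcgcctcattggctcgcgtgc

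The core site stood in the windows of *Plin2*, read on the other strand as TGACCT 218 bases before the start, and of *Plin5*, 170 bases before it. It was found in 14.0% of all windows. The windows of *Plin1*, *Plin3* and *Plin4* did not hold these letters, and 0 members held it as a direct repeat with 1 base between the copies, a form that occurred in 11 windows (0.0335%). CCAAT, on either strand, was held by the windows of *Plin2*, *Plin3*, *Plin4* and *Plin5* and by 33.8% of all windows. The windows searched covered the 250 bases before the start, and the pieces shown leave out the last 1 (*Plin2*), 21 (*Plin4*) and 48 (*Plin5*) of these. The CCAAT match of *Plin4*, 18 bases before the start, lies in the part left out. The windows of *Plin3* and *Plin5* also held GGGCGG. A match describes letters only.

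*Plin4* is told from the other members by a coding sequence built from repeats, which bears on how reads can be placed. In the 4209 coding bases of its transcript (GENCODE M21, GRCm38), 1 word of 30 bases occurred 8 times, and all 7 spacings between its copies were multiples of 99 bases. Of the units of 99 bases that begin with this word, 4 are shown, from chr17:56106817-56106915, chr17:56106520-56106618, chr17:56106223-56106321 and chr17:56106124-56106222, all exonic. Capitals mark the shared word.
Plin4, unit 1: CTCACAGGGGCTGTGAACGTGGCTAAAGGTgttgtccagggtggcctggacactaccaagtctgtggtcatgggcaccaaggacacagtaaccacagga
Plin4, unit 2: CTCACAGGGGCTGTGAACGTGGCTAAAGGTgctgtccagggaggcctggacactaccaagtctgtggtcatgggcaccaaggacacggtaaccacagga
Plin4, unit 3: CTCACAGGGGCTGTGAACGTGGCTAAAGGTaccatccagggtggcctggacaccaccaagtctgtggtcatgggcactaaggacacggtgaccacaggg
Plin4, unit 4: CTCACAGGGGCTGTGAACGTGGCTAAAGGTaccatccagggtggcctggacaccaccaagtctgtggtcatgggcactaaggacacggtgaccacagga

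For reads of 100 bases, 490 of 5657 positions of the *Plin4* transcript (8.66%) gave a sequence that occurs there more than once. In the transcripts of the other 4 members 0 positions did so. Each transcript was searched against itself alone.

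Levels are given in CPM (counts over the library total, scaled to a common size) after TMM normalization, as the sum over all rows of a locus unless a row is named. To compare genes, the sums were divided by the bases of all annotated exons, which gives CPM per kb. *Plin2* had the highest level of the family, at 84.7 ± 16.8 CPM per kb (SD over all 6 pools), which was 85.9% of the summed level of the 5 loci. The *Plin3* locus, with *Ticam1* in both the counts and the length, followed at 13.4 ± 1.29 CPM per kb and 13.6% of the sum. *Plin2* was thus 6.34-fold above that locus on the scale per kb. The other 3 members were far lower.

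*Plin4* stood at 0.400 ± 0.0969 CPM per kb, *Plin5* at 0.0728 ± 0.0355 and *Plin1* at 0.0391 ± 0.0143. The ranges over the pools did not overlap between *Plin2* and the *Plin3* locus, between that locus and *Plin4*, or between *Plin4* and *Plin5*. Those of *Plin5* (0.0201 to 0.125) and *Plin1* (0.0235 to 0.0573) did overlap, so these neighbours did not differ beyond their spread. By mean CPM, not divided by length, *Plin2* ranked 538th, *Plin1* 19265th and *Plin5* 19789th of the 24061 loci that passed the filter on low counts. All 5 members passed it.

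**Figure D1:**
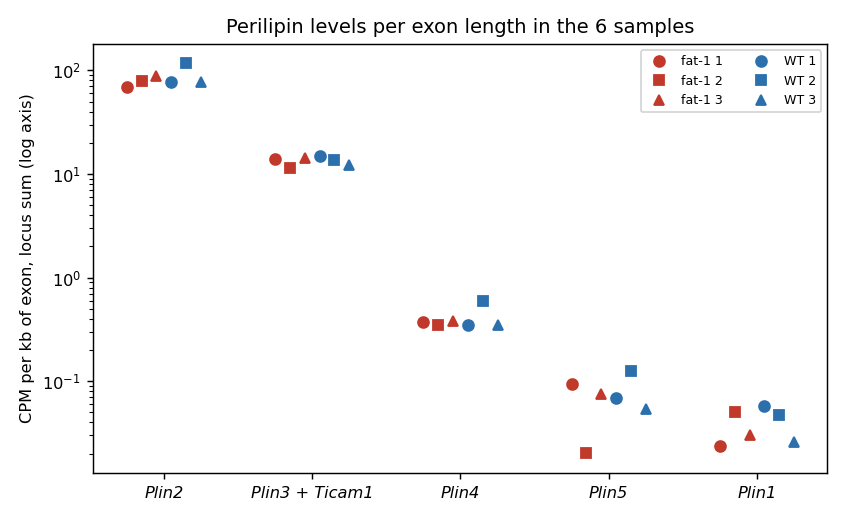
Level of each perilipin locus in CPM per kb of annotated exon (log axis), with 1 point per pool, colour for genotype and marker shape for the pool number. *Plin2* lies highest and *Plin1* and *Plin5* overlap at the bottom, with the genotypes mixed at every locus.

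*Plin2*, the coat of most non-adipose droplets and of milk fat, was measured by 51179 to 92655 counts per pool. Its locus sum was 242.6, 276.6 and 312.3 CPM in *fat-1* pools 1 to 3 and 272.0, 408.9 and 271.8 CPM in WT pools 1 to 3. WT pool 2 was the highest, and the other WT pools lay inside the *fat-1* range. The means were 277 ± 34.9 CPM for *fat-1* and 318 ± 79.1 CPM for WT (SD, n = 3), a log2 fold change of -0.20 (SE 0.19, 95% interval -0.66 to 0.26). By edgeR's quasi-likelihood test the adjusted *p* was 1.00 (unadjusted 0.339), and the exact permutation test gave *p* = 0.7, two-sided. A permutation of 3 against 3 pools cannot give less than 0.1.

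The *Plin2* locus held 3 rows, which divided its counts in a way that varied from pool to pool. The row with the symbol held 71.0%, 64.7% and 82.7% of the counts of the *fat-1* pools and 67.1%, 60.4% and 64.2% of those of the WT pools. Nearly all shares lay close together, and the largest was that of *fat-1* pool 3. On this row alone the means were 203 ± 47.1 CPM for *fat-1* and 201 ± 40.3 CPM for WT, a log2 fold change of 0.015 (SE 0.22, edgeR adjusted *p* = 1.00).

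The remaining counts fell in a row without a symbol, at 70.7, 97.9 and 54.0 CPM in the *fat-1* pools and 89.4, 162.1 and 97.2 CPM in the WT pools. Here *fat-1* pool 2 lay among the WT pools, and the log2 fold change was -0.65 (SE 0.32, edgeR adjusted *p* = 1.00, unadjusted 0.0894). Leaving out 1 pool at a time gave -0.90 to -0.33. *Gm12551*, an unprocessed pseudogene 17134 bases from *Plin2* in the same locus, had 0 counts in all 6 pools, which allows up to 3 counts or 0.0146 CPM in WT pool 3, the shallowest, counting error alone.

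*Plin3*, the cytosolic member that moves onto new droplets, gave different pictures by row and by locus. The row with its symbol stood at 3.56, 2.02 and 1.86 CPM in the *fat-1* pools and at 3.22, 47.9 and 43.3 CPM in the WT pools. WT pools 2 and 3 were high, whereas WT pool 1 lay inside the *fat-1* range. These are the values on which the family was chosen, and the log2 fold change of the row was -3.67, given without a test. Without WT pool 1 it was -4.20, without WT pool 2 it was -3.24 and without WT pool 3 it was -3.37.

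The whole locus moved far less. Its sum was 94.2, 77.9 and 96.0 CPM in the *fat-1* pools and 100.7, 92.2 and 81.8 CPM in the WT pools, and the ranges of the genotypes overlapped. The means were 89.4 ± 9.94 CPM and 91.6 ± 9.47 CPM, a log2 fold change of -0.04, given without a test.

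Within the locus the counts changed place. The *Plin3* row held 3.77%, 2.59% and 1.95% of them in the *fat-1* pools and 3.21%, 51.9% and 53.1% in the WT pools. The row without a symbol held 93.8%, 92.7% and 95.8% in the *fat-1* pools and 94.97%, 39.5% and 0% in the WT pools. In WT pool 3 that row had 0 of 16821 counts, which allows a share of up to 0.0178%, counting error alone.

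The *Ticam1* row took the rest, at 2.40%, 4.74% and 2.27% in the *fat-1* pools and 1.83%, 8.58% and 46.9% in the WT pools. WT pool 3 was thus divided between the named genes alone, and WT pool 2 had all 3 rows in use. WT pool 1 had a division close to that of the *fat-1* pools, with its *Ticam1* share just below theirs. The row without a symbol cannot be assigned to either gene here, and WT pool 3 was the one pool with all counts of the locus under a symbol.

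**Figure D2:**
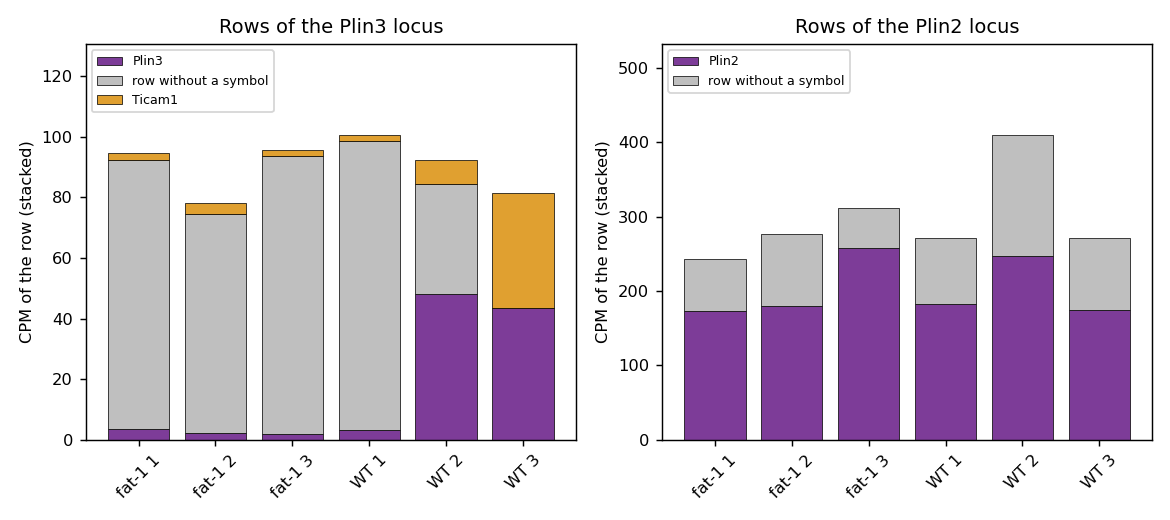
CPM of each counted row of the *Plin3* locus (left) and the *Plin2* locus (right), stacked in 1 bar per pool from 0. In the *Plin3* locus the row without a symbol makes up 92.7% to 95.8% of the bar in the *fat-1* pools and WT pool 1, 39.5% in WT pool 2 and 0% in WT pool 3.

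Such moves between rows were common in the matrix. Of 5825 tested loci with more than 1 counted row, 1827 (31.4%) did not have the same row on top in all 6 pools. Of 5278 with a row without a symbol, 414 (7.84%) had that row at 0 in some pools and above 0 in others. The *Plin3* locus belonged to both groups.

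*Plin4*, the repeat-built member, was measured by 411 to 780 counts per pool in 1 row. It stood at 2.17, 2.03 and 2.21 CPM in the *fat-1* pools and at 2.03, 3.44 and 1.999 CPM in the WT pools. WT pool 2 was again the highest, and the other 5 pools lay within 1.999 to 2.21 CPM. The means were 2.14 ± 0.0968 and 2.49 ± 0.825 CPM, a log2 fold change of -0.22 (SE 0.25, 95% interval -0.83 to 0.38). The edgeR adjusted *p* was 1.00 (unadjusted 0.407) and the exact permutation *p* was 0.9.

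*Plin5*, which ties droplets to mitochondria, was rare, with 9 to 59 counts per pool in 1 row. It stood at 0.194, 0.0419 and 0.159 CPM in the *fat-1* pools and at 0.145, 0.260 and 0.112 CPM in the WT pools. The lowest was *fat-1* pool 2 and the highest WT pool 2, with the other pools mixed between them. The means were 0.132 ± 0.0797 and 0.172 ± 0.0780 CPM, a log2 fold change of -0.40 (SE 0.57, 95% interval -1.78 to 0.97, edgeR adjusted *p* = 1.00, exact permutation *p* = 0.6).

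*Plin1*, the coat of the fat cell droplet, was also rare, with 23 to 57 counts per pool in 1 row. It stood at 0.109, 0.233 and 0.139 CPM in the *fat-1* pools and at 0.266, 0.221 and 0.122 CPM in the WT pools, and the genotypes overlapped. The means were 0.161 ± 0.0646 and 0.203 ± 0.0740 CPM, a log2 fold change of -0.34 (SE 0.42, 95% interval -1.35 to 0.67, edgeR adjusted *p* = 1.00, exact permutation *p* = 0.5). The intervals of *Plin1* and *Plin5* both reach below -1 on the log2 scale, so a fall of that size is within both. The sum of the fat cell markers was 91.9 to 114 CPM in the *fat-1* pools and 118 to 136 CPM in the WT pools. These ranges did not overlap, nor did those of 4.15% of all tested loci. Most of the sum was *Fabp4*, which endothelial cells and macrophages also express. The mean log2(CPM + 1) of the same markers did overlap, at 0.991 to 1.151 in the *fat-1* pools and 1.011 to 1.297 in the WT pools. The part of fat cell content in the *Plin1* difference was not tested.

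Of the 4 tested members, 0 passed an adjusted *p* of 0.05 in the quasi-likelihood fit of edgeR, and 0 passed an unadjusted *p* of 0.05. Across all 24061 locus sums 0 (0.0%) passed the adjusted threshold and 274 (1.14%) the unadjusted one, 0.478% higher and 0.661% lower in the *fat-1* pools. Across the 30683 rows tested as deposited, 0 (0.0%) and 677 (2.21%) did. The exact test of edgeR passed 6 loci and 32 rows at the adjusted threshold, and DESeq2 passed 8 and 93. The genotypes overlapped at all 5 perilipin loci, and they did not overlap at 4.15% of all tested loci. All *p*-values measure the spread between pooled samples.

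**Figure D3:**
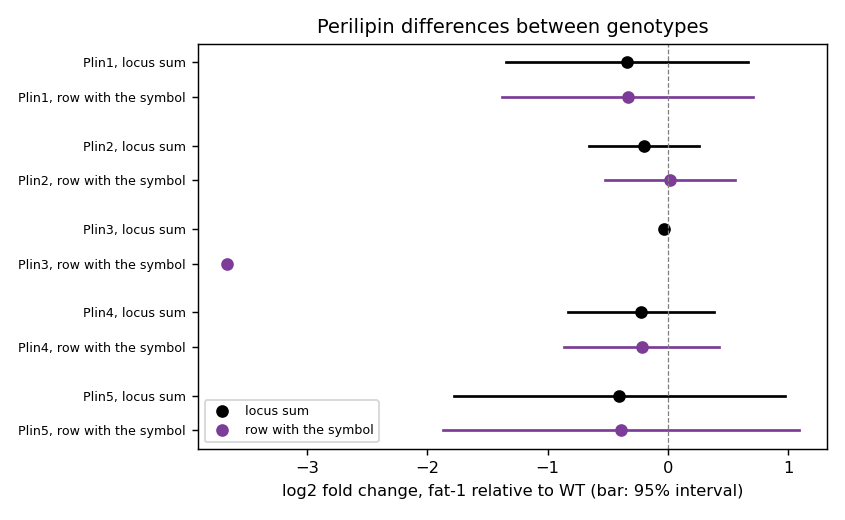
Log2 fold change of *fat-1* against WT for each perilipin, for the locus sum and for the row with the symbol, with 95% intervals except for *Plin3*, whose values chose it. The intervals of the other 4 locus sums span 0. The *Plin3* row lies at -3.67 while its locus lies at -0.04.

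*Plin2*, *Plin4* and *Plin5* shared their highest pool. In WT pool 2, the locus sum of *Plin2* was 1.5 times, of *Plin4* 1.70 times and of *Plin5* 1.80 times the median of the other 5 pools. *Plin1* was at 1.58 times that median without being highest, and *Plin3* was at 0.979 times. Over all tested loci, 15.5% were highest in this pool and 7.42% lay above 1.5 times. The pattern was noticed after the values were seen. Without WT pool 2 the log2 fold changes were 0.028 for *Plin2*, 0.085 for *Plin4* and 0.030 for *Plin5*, so the lower *fat-1* values of these 3 genes rest on it. That of *Plin5* also rests on *fat-1* pool 2, without which it was at 0.022.

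Of the 9 PPAR target genes reported, 3 were also highest in WT pool 2. So were 6 of 12 droplet assembly genes, 3 of 8 PPAR and RXR genes and 2 of 4 endothelial markers. Over all lists the share ran from 0% (luminal, basal, lymphocyte and milk fat globule genes) to 66.7% (3 brown fat markers), beside 15.5% of all tested loci. The 3 PPAR targets were chosen for mention after their values were seen. *Angptl4*, an inhibitor of lipoprotein lipase, stood there at 123.8 CPM and at 40.5 to 79.8 CPM in the other pools. *Pdk4*, a brake on pyruvate dehydrogenase, stood at 13.8 CPM against 5.56 to 7.28 CPM, and *Cd36*, a fatty acid transporter, at 86.2 CPM against 38.3 to 68.8 CPM. The other 6, among them the fat oxidation genes *Cpt1a* and *Acadm*, were not highest there.

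**Figure D4:**
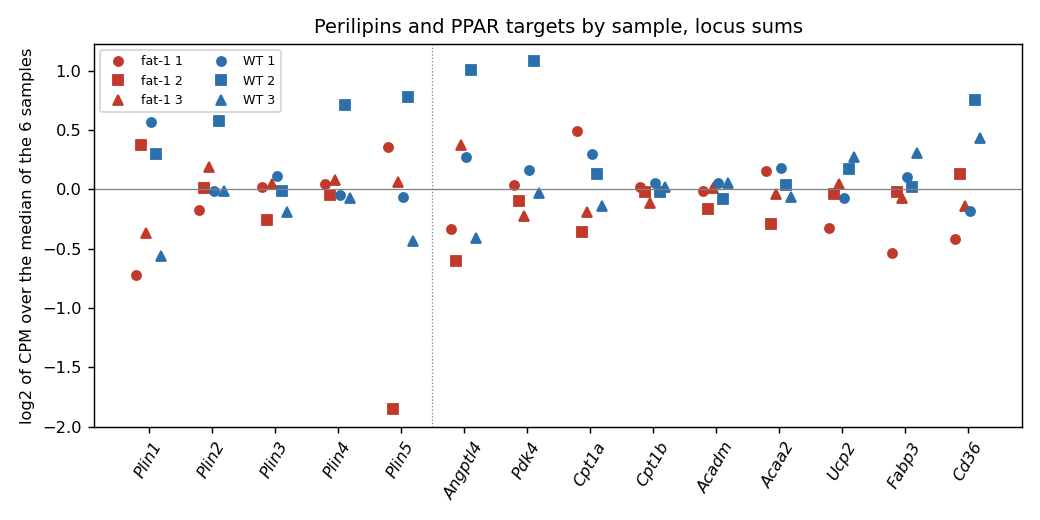
Level of the 5 perilipin loci and 9 PPAR target genes in each pool relative to the median of the 6 pools (log2 scale), with colour for genotype and marker shape for the pool number. WT pool 2 is the top point for *Plin2*, *Plin4*, *Plin5*, *Angptl4*, *Pdk4* and *Cd36*, and is not the top point for the rest.

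Between the genotypes, 0 of the 9 PPAR targets passed the unadjusted threshold in either direction. Their median log2 fold change was -0.23, beside 0.00183 over all tested loci. *Pdk4* was at -0.58 (SE 0.31) and *Cd36* at -0.51 (SE 0.26), with edgeR adjusted *p* of 1.00 for both. Of the 8 PPAR and RXR receptors and coactivators, likewise 0 passed, with a median of 0.05. *Pparg*, the receptor of fat cells, was at -0.23 (SE 0.21) and the coactivator *Ppargc1a* at -0.33 (SE 0.23).

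Genes of lipolysis came next, the lipase activator *Abhd5* among them. Of 9 genes of lipolysis, 0 passed the unadjusted threshold in either direction, with a median log2 fold change of -0.07 (2 above 0, 7 below). *Mgll*, which splits monoglycerides, stood at 3.57, 3.13 and 3.73 CPM in the *fat-1* pools and at 4.42, 4.29 and 3.65 CPM in the WT pools (log2 fold change -0.25, SE 0.15). *Abhd5*, the lipase activator that *Plin1* holds, was at -0.10 (SE 0.12). The locus of *Pnpla2*, the first triglyceride lipase, also held *Cd151* and *Cracr2b*, so its value of 0.03 (SE 0.18) is shared with them. *Lipe*, *Pnpla3* and *Hilpda* also lay in loci with other genes. So did some genes of other lists, such as *Cpt1b* and *Bscl2*, and the list counts and medians include these shared values.

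Of 13 genes of neutral lipid synthesis, 0 passed, with a median of 0.04. *Soat1*, which esterifies cholesterol, was at -0.17 (SE 0.15) and *Mogat2*, a monoglyceride acyltransferase, at -0.36 (SE 0.48). Of 12 genes of droplet assembly and fusion, 0 passed, with a median of 0.02. *Cav1*, the caveolar coat protein also found on droplets, was at -0.37 (SE 0.18) and *Aup1* at 0.07 (SE 0.08). Of 4 milk fat globule genes, 0 passed, with *Btn1a1* at 0.75 (SE 1.01) and *Xdh* at -0.06 (SE 0.29). Both code for partners of *Plin2* in milk fat secretion.

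The isolates were of mixed cell content, and the markers of several cell types differed widely between pools. Fewer cells of a type and less RNA per cell cannot be told apart in such samples. The 8 luminal markers were all present, led by *Krt8* (210 to 899 CPM) and *Krt18* (193 to 908 CPM), and summed to 741 to 3220 CPM in the *fat-1* pools and 793 to 2628 CPM in the WT pools. The 6 basal markers summed to 140 to 535 CPM and 135 to 417 CPM. Lymphocyte markers summed to 481 to 1017 CPM and 476 to 1069 CPM although lymph nodes had been removed by the methods, and fibroblast markers to 1551 to 6064 CPM and 3331 to 5616 CPM.

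Fat cell markers were low apart from *Fabp4*. *Adipoq*, which defines fat cells, stood at 0.256 to 0.5 CPM over all pools and *Car3* at 1.07 to 5.47 CPM. *Fabp4*, which endothelial cells and macrophages also express, stood at 83.1 to 106 CPM in the *fat-1* pools and 111.5 to 125.9 CPM in the WT pools. The sum over the 12 markers, most of it *Fabp4*, did not overlap between the genotypes, nor did 4.15% of all tested loci. Of the 12, 5 had a log2 fold change above 0 and 7 below. At the unadjusted threshold 0 were higher and 2 lower (edgeR adjusted *p* = 1.00 for both), beside 0.478% and 0.661% of all tested loci. These were *Fabp4* at -0.31 (SE 0.12) and *Acvr1c* at -0.73 (SE 0.24), the latter at only 0.205 to 0.43 CPM. Of the 3 brown fat markers, *Dio2* was lower at that threshold (-0.93, SE 0.24, edgeR adjusted *p* = 1.00). *Elovl3* was at -0.17 (SE 0.26) and *Ucp1* at 0.04 (SE 0.31), the latter at only 0.178 to 0.344 CPM.

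Of the luminal, basal, macrophage, lymphocyte, fibroblast, endothelial and muscle markers, 0 passed the unadjusted threshold. Their medians were 0.04, 0.17, -0.13, 0.13, -0.28, -0.13 and 0.01. The 10 macrophage markers, led by *Cd68* in a locus shared with *Eif4a1* and then *Cd14*, summed to 772 to 962 CPM in the *fat-1* pools and 830 to 915 CPM in the WT pools. Most of this sum was the shared *Cd68* locus, at 667.5 to 859.6 CPM over all pools, so it says little about macrophages. *Cd14* stood at 22.1 to 58.2 CPM. The endothelial genes with the smallest *p*, *Cdh5* (-0.26, SE 0.11) and *Tek* (-0.46, SE 0.23), did not overlap between genotypes, nor did 4.15% of all tested loci. For *Cdh5* the highest *fat-1* pool was at 79.5 CPM and the lowest WT pool at 79.8 CPM. The remaining endothelial markers, *Pecam1* (-0.003, SE 0.30) and *Kdr* (0.09, SE 0.28), overlapped.

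None of the named members of the other lists passed the test. The luminal genes *Elf5* and *Krt19* were at -0.67 (SE 0.69) and -0.43 (SE 0.68), and the basal genes *Trp63* and *Oxtr* at -0.73 (SE 0.75) and -0.76 (SE 0.85). *Mertk* and *Cd14* of the macrophage list were at -0.33 (SE 0.16) and -0.42 (SE 0.36). The lymphocyte genes *Cd8a* and *Cd79a*, the latter in a locus with *Arhgef1*, were at 0.22 (SE 0.43) and 0.13 (SE 0.32). The fibroblast genes *Dcn* and *Pdgfra* were at -0.32 (SE 0.28) and -0.43 (SE 0.42). Muscle markers were near 0, with sums of 2.72 to 4.14 CPM over all pools, *Acta1* at -0.28 (SE 0.29) and *Ckm* at 0.05 (SE 0.39).

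**Figure D5:**
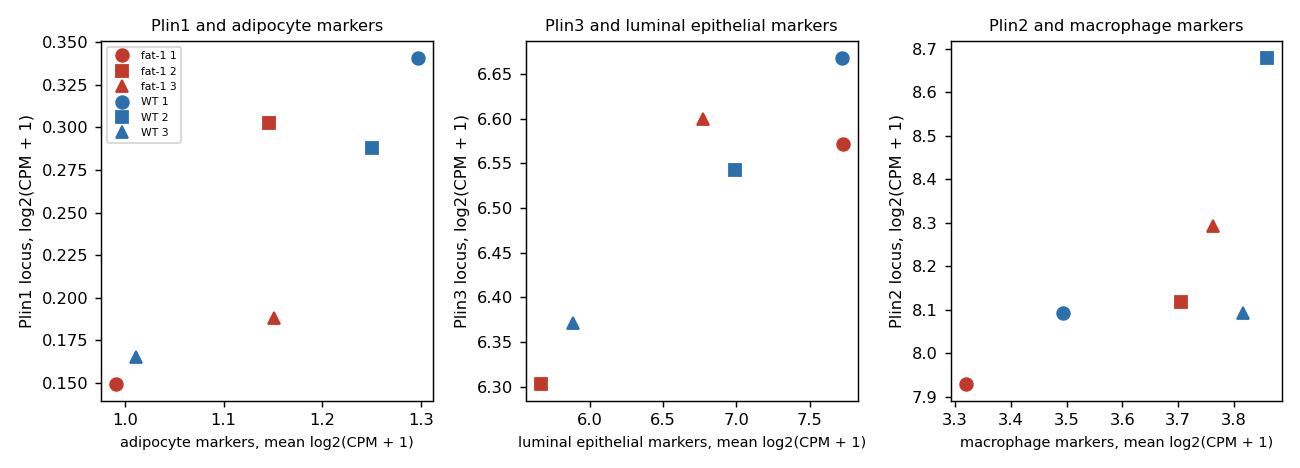
Locus sums in log2(CPM + 1) on the y axes against the mean log2(CPM + 1) of a marker list on the x axes, 1 point per pool coloured by genotype, for *Plin1* and adipocyte, *Plin3* and luminal, and *Plin2* and macrophage markers. *Plin1* lies higher where the adipocyte mean is higher (r = 0.884), with the genotypes mixed.

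The level of each member was set against 4 marker lists over the 6 pools, which made 20 relations. By exact permutation tests, 0 of the 20 had an adjusted *p* at or under 0.05, and the smallest was 0.222. *Plin1* ran with the adipocyte markers (Pearson r = 0.884, exact permutation *p* = 0.0208; Spearman rho = 0.829, *p* = 0.0583), and r was 0.722 without *fat-1* pool 1 and WT pool 1. The *Plin3* locus ran with the luminal markers (r = 0.914, exact permutation *p* = 0.0222, rho = 0.714, *p* = 0.136), and r fell to 0.438 without *fat-1* pool 2 and WT pool 3. For *Plin2* the largest r were 0.723 with fibroblast and 0.709 with macrophage markers (exact permutation *p* of 0.139 and 0.103). The part of cell content in the perilipin levels was not tested further.

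Over the 6 pools, the loci most like each member among 16435 compared were, for *Plin2*, *Ubfd1* (r = 0.989), *Atrnl1* (0.985) and *Tulp4* (0.985). For *Plin4* they included *Pcdhb16* (0.986) and *Sfr1* (0.978), and for *Plin5* they were *Atrn* (0.995), *Cops5* (0.992) and *Ube3c* (0.989). For *Plin1* they were *Wdr49* (0.983), *Mroh9* (0.977) and *Guca1b* (0.974), and for the *Plin3* locus *Imp3* (0.995), *Mccc2* (0.994) and *Ttc39a* (0.994). With 6 points many loci reach such values, and 14 to 276 loci had r above 0.95 with a given member. Among the members, the closest pair was *Plin2* and *Plin4* (r = 0.898), which shared WT pool 2 as their highest. These correlations share libraries and describe these pools alone.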

How the data were processed

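RNA from 3 *fat-1* and 3 WT pools was read as pairs of 100 bases, mapped by the authors to GRCm38 with HISAT2 and assembled with StringTie. The authors deposited 1 matrix of estimated counts, whole numbers without normalization, and every value column belonged to a sample. The step from coverage to counts, the annotation, the StringTie version and the use of strand are not given in the sources used here. Totals were 204539059 to 232148824 estimated counts per pool. How far depth or the number of pools limits the results was not tested.

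Rows with the same locus number were added together. Members and gene lists were chosen with earlier results of these data known. Loci and rows were tested by quasi-likelihood in edgeR 4.0.16 under R 4.3.3 (newer fit, genotype only, filterByExpr, TMM, Benjamini–Hochberg, threshold 0.05), checked on simulated data. DESeq2 1.42.0, edgeR's exact test, other filters and normalizations, a replicate block and leaving out each pool were alternatives. Exact permutations used log2(CPM + 1). Named genes were all members, the 2 of each list with the smallest unadjusted *p*, the 2 highest adipocyte, macrophage and luminal markers and the 3 loci most like each member. Others named in the text were added after their values were seen, and 2 genes of the PPAR target list are not reported here, so its counts and median leave them out. Positions and *Plin4* units are from GENCODE M21, and upstream sequences from RefSeq GRCm38.p6 (all 5 members matched). Python 3.11.15 and scipy 1.17.1 served for the rest.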

Additional observations from a re-analysis of the deposited data

How the results depend on the processing

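With locus sums, 0 loci passed an adjusted *p* of 0.05 in the quasi-likelihood fit of edgeR (274 unadjusted), 6 by the exact test, 8 by DESeq2 and 0 to 1 on leaving out each pool. With the rows as deposited the counts were 0 (677 unadjusted), 32, 93 and 0 to 2. At the unadjusted threshold, no filter gave 579 loci and 1136 rows, and leaving out each pool gave 204 to 542 loci and 635 to 986 rows. The locus log2 fold change of *Plin2* was -0.20, turned to 0.028 without WT pool 2 and to 0.015 on the named row, and ranged from -0.29 to 0.028 on leaving out each pool. That of *Plin4* ranged from -0.35 to 0.085, reached without WT pool 2. That of *Plin5* ranged from -0.79 to 0.030, turning to 0.022 without *fat-1* pool 2 and to 0.030 without WT pool 2. *Plin1* ranged from -0.71 to -0.09 and the *Plin3* locus from -0.10 to 0.05, against -3.67 on the *Plin3* row alone. The causes were not tested. Of 56 alternatives for the 4 tested members, 51 kept the direction and 0 crossed the threshold. The *Plin3* locus turned above 0 without *fat-1* pool 2 (0.053) and without WT pool 1 (0.040). For the 20 relations with marker lists, a pseudocount of 0.1 CPM and library totals made 40 alternatives, and all kept direction and side. Leaving out the 2 pools farthest from the median of a list was not among these 40. It turned the sign of some relations, such as *Plin5* with luminal markers (r = 0.674 to -0.289) and *Plin3* with macrophage markers (-0.422 to 0.460).

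The labels do not state that the replicate numbers pair the pools. Deviations of same-numbered pools correlated at 0.799, -0.164 and 0.132, and those of differently numbered pools at -0.783 to 0.789. With 3 pools per genotype and mixed cell content, these values cannot decide whether pools were paired. With the replicate number as a block, 0 loci and 0 rows passed the adjusted threshold, and 376 loci and 784 rows the unadjusted one. *Plin2* was then at -0.18 and *Plin5* at -0.41, and of the members 0 calls changed.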
